A study of Mus musculus with 6 samples.

Results

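The cyclic nucleotide phosphodiesterase genes Pde10a, Pde1a, Pde1b, Pde1c, Pde2a, Pde4a, Pde4b, Pde4d, Pde7b and Pde8b were examined in the striatum of young mice whose fathers had received methylphenidate or saline. They were chosen by gene symbol, and all 10 were found among the 45777 genes of the authors' deposited table. The libraries came from 6-week-old offspring of the outbred ICR strain. In the methylphenidate-sired group the father had received 15 mg/kg methylphenidate, a blocker of the dopamine and noradrenaline transporters, and in the saline-sired group 10 mL/kg saline. In both groups the sires were 6 weeks old, the injections were subcutaneous and ran over 21 days, and the dams had received no drug. The labels name no engineered allele and no drug given to the offspring. Each group had 3 offspring, 2 females and 1 male by the labels. The sources used here do not give the number of sires or litters, so p-values measure the spread between these animals, some of which may be siblings.

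Phosphodiesterases hydrolyse cAMP and cGMP, the second messengers made by adenylyl and guanylyl cyclases, and so end the signals that dopamine, adenosine and nitric oxide start in striatal neurons. Dopamine D1 receptors raise cAMP and D2 receptors lower it, and protein kinase A passes the cAMP signal on to channels, receptors and transcription factors. Medium spiny neurons, the GABAergic projection neurons of the striatum, are known for high PDE10A and PDE1B. PDE1 enzymes are activated by calcium and calmodulin and hydrolyse both nucleotides, PDE2 is stimulated by cGMP, PDE10 hydrolyses both nucleotides, and the PDE4, PDE7 and PDE8 enzymes are specific for cAMP.

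The genes differ widely in extent. In mm10, Pde1b (Gene ID 18574) spans 27.0 kb on chromosome 15 from 103503034 to 103530056, whereas Pde4d (Gene ID 238871) spans 1302 kb on chromosome 13 from 108654177 to 109955969. Pde10a (Gene ID 23984) lies on chromosome 17 from 8525187 to 8986648, Pde7b (Gene ID 29863) on chromosome 10 from 20397052 to 20725078, and Pde1a (Gene ID 18573) on chromosome 2 from 79834453 to 80196522. Exons of Pde8b overlap those of the antisense gene Gm48420 over 447 nucleotides, and 64.3% of the merged exon length of Pde2a also belongs to Gm45837, annotated on the same strand. Neither partner has a row in the deposited table, and no source used here states the strandedness of the libraries or the handling of shared exons, so the counts of Pde2a and Pde8b carry that uncertainty.

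Sequence just upstream of a start is shown for Pde1b, Pde10a and Pde7b, so that the promoters of the 3 genes with lower values that are described most closely can be read side by side. These are the 100 bases before the 5′-most start that the RefSeq promoter table (GRCm38.p6, the assembly of mm10) lists for each gene, written 5′ to 3′ on the gene's strand. In Pde10a and Pde7b that start lies within the annotated span of the gene. Capitals mark a GC box (GGGCGG on either strand) or a CCAAT box (CCAAT on either strand).
Pde1b, chr15:103502934-103503033, plus strand: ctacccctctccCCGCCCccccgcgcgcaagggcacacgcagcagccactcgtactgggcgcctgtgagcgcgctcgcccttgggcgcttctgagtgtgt
Pde10a, chr17:8801645-8801744, plus strand: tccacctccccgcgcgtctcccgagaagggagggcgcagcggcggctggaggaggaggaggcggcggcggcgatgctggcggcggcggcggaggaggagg
Pde7b, chr10:20548329-20548428, minus strand: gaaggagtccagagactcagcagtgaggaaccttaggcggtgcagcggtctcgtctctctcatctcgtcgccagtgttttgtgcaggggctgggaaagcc
The Pde1b stretch held 1 GC box and the others none, and none of the 3 held a CCAAT box. Their G and C content was 72% in Pde1b, 79% in Pde10a and 59% in Pde7b.

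Because cAMP acts on transcription through the cAMP response element (CRE), windows of 300 bases around each listed start, 250 before and 50 after it, were searched for the full element TGACGTCA and for its half-site TGACG on either strand, which the full element contains. The 10 genes have 31 such windows. None held the full element, against 1.79% of all 32851 windows in the table, and 16.1% held a half-site, against 20.8% of all windows. A GC box was present in 25.8% of the members' windows and in 35.7% of all, and a CCAAT box in 35.5% of the members' and 37.4% of all. Counted by gene, the order is the other way for the half-site and both boxes: 5 of the 10 genes had a half-site in at least 1 window, against 23% of the 27025 genes in the table, 5 had a GC box, against 38.2%, and 7 had a CCAAT box, against 41.1%. The members have 31 windows for 10 genes, more per gene than the table as a whole, and neither comparison was tested. The half-sites that lay before a start are shown within 60 bases, with the half-site, here read on its other strand as CGTCA, in capitals.
Pde1a, chr2:80039035-80039094, minus strand: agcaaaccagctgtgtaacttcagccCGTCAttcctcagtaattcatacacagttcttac
Pde4a, chr9:21184025-21184084, plus strand: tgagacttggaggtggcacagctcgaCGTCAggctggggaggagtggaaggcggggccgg
Pde4b, chr4:102421495-102421554, plus strand: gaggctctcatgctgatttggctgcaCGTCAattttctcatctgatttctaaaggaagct
A match of letters is a description of the window and not evidence of binding.

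Total counts were between 31360042 and 38844724 per library. The libraries are called by group and by the animal number in the table, which are 2, 4 and 6 in the methylphenidate-sired group and 3, 4 and 5 in the saline-sired group. A number cannot be tied to a labelled animal, and so not to its sex. Defining markers of striatal projection neurons were abundant in every library, with Ppp1r1b, the gene of a dopamine-regulated phosphatase inhibitor, at 1376 to 1651 CPM (counts scaled to a common library size with TMM factors) in the methylphenidate-sired group and at 1652 to 1898 CPM in the saline-sired group. Slc17a7, the vesicular glutamate transporter gene of cortical excitatory neurons, was detected throughout. It was at 540, 570 and 616 CPM in methylphenidate-sired libraries 2, 4 and 6, against 337, 163 and 438 CPM in saline-sired libraries 3, 4 and 5, without overlap. The choroid plexus gene Ttr reached 1905 CPM in saline-sired library 3 against 9.88 to 306 CPM in the other saline-sired libraries and 14.7 to 61.3 CPM in the methylphenidate-sired libraries.

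Per unit length, Pde1b was the most abundant of the phosphodiesterase genes. Levels of different genes were compared as CPM per kilobase of merged exon length. Pde1b was at 199 ± 11.3 CPM per kilobase in the methylphenidate-sired and 237 ± 2.03 CPM per kilobase in the saline-sired group (SD, n = 3 each), a level at or above that of 99.4% of the 14775 tested genes with a known length. Pde10a followed with 130 ± 10.7 and 146 ± 8.55 CPM per kilobase in the methylphenidate-sired and saline-sired groups, and Pde2a with 107 ± 6.09 and 117 ± 4.38 CPM per kilobase. The range of Pde1b over the 6 libraries lay above that of Pde10a, while the ranges of Pde10a and Pde2a overlapped. Pde7b and Pde8b formed the next pair, at 22.2 ± 2.22 and 20.1 ± 0.961 CPM per kilobase in the methylphenidate-sired group and 26.8 ± 0.408 and 21.6 ± 0.402 CPM per kilobase in the saline-sired group, again with overlapping ranges.

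Pde4b, Pde1a and Pde4a came next in order, at 15.9 ± 1.84, 18.9 ± 0.0715 and 12.3 ± 0.888 CPM per kilobase in the methylphenidate-sired group, against 16.0 ± 1.51, 11.1 ± 3.46 and 11.3 ± 0.940 CPM per kilobase in the saline-sired group. The order is that of means over all 6 libraries. By group, Pde1a stood above Pde4b in the methylphenidate-sired group, and below Pde4b, Pde6d and Pde4a in the saline-sired group. Over the 6 libraries Pde4b overlapped with Pde1a, and Pde1a with the non-member Pde6d, which in turn overlapped with Pde4a. Pde4d was at 6.33 ± 0.445 and 5.03 ± 0.688 CPM per kilobase, and Pde1c was lowest of the 10, at 1.62 ± 0.385 and 1.90 ± 0.290 CPM per kilobase, in the methylphenidate-sired and saline-sired groups. With the longest RefSeq transcript in place of the merged exons, the order of Pde1b, Pde10a, Pde2a and Pde7b was kept, whereas Pde4d moved from 11th to 8th and Pde1a from 7th to 9th among the 24 genes of the family.

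Pde1b, Pde10a and Pde2a together made up 77.7%, 77.7% and 76.3% of the summed per-kilobase level of the family in methylphenidate-sired libraries 2, 4 and 6, against 79.3%, 80.3% and 80.0% in saline-sired libraries 3, 4 and 5. The methylphenidate-sired shares all lay below the saline-sired ones. Taken singly, only Pde1b had shares without overlap, at 34.2% to 35.9% in the methylphenidate-sired and 37.1% to 38.7% in the saline-sired group. Pde10a (22.0% to 23.7% against 22.0% to 24.1%) and Pde2a (18.4% to 19.8% against 18.4% to 19.2%) overlapped. How often other gene sets would separate in this way was not computed. The 3 PDE1 genes held 37.8% to 39.4% in the methylphenidate-sired and 39.3% to 41.0% in the saline-sired group, and PDE2 with PDE10 held 40.9% to 43.4% and 40.6% to 42.9%, both with overlap between the groups. The cAMP-specific PDE4, PDE7 and PDE8 genes held 14.7% to 15.7% and 14.3% to 14.7%, also with overlap. These class shares are by merged exons, and the overlap depended on the length used. With the longest RefSeq transcript, PDE1 genes held at most 37.9% in the methylphenidate-sired and at least 38.1% in the saline-sired group, without overlap. The cAMP-specific genes then held at least 19.5% and at most 19.1% in these groups, also without overlap. PDE2 with PDE10 still overlapped. The sum runs over the 24 genes of the family. It counts Pde6d, which does not encode a phosphodiesterase and held 2.15% to 2.77% in the methylphenidate-sired and 2.19% to 2.57% in the saline-sired group, by merged exons. These shares are shares of RNA and say nothing of enzyme activity.

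**Figure D1:**
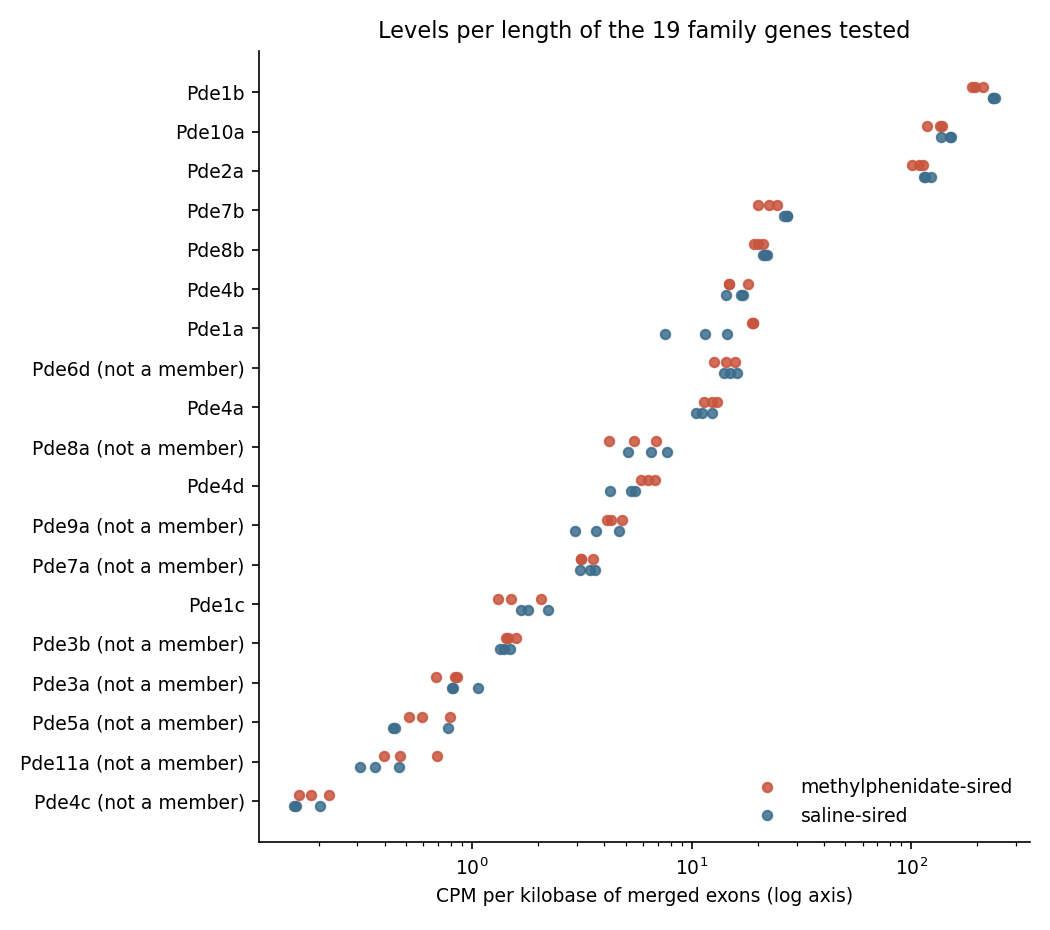
Level of the 19 phosphodiesterase family genes that passed the filter on low counts, as CPM per kilobase of merged exons on a log axis, with a point for each library (methylphenidate-sired above saline-sired in each row). Pde1b, Pde10a and Pde2a lie above 100 CPM per kilobase in every library, and Pde7b, next in order, reaches at most 27.1.

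The comparison of the groups asked whether the father's treatment went with a difference in striatal expression. None of the 10 phosphodiesterase genes passed the test after Benjamini-Hochberg adjustment over the 17874 genes tested (edgeR quasi-likelihood test, threshold 0.05), where 4 genes (0.0224%) passed in all, all of them lower. Pde1a and Pde4d had higher values in the methylphenidate-sired group with no overlap between groups, and Pde1b, Pde7b, Pde2a and Pde8b had lower values with no overlap. Groups without overlap were found in 14.8% of all genes tested, 7.84% higher and 7.01% lower. At an unadjusted p under 0.05 there were 2 members higher and 2 lower, against 9.02% of all genes (5.07% higher and 3.95% lower). DESeq2 called 1 member higher, Pde1a, and 1 lower, Pde1b, against 1.25% of the 14403 genes to which it gave an adjusted p (0.972% higher and 0.278% lower), and limma-voom called 0 members and 0.0224% of all genes. Of the 10, 7 had a negative and 3 a positive log2 fold change (methylphenidate-sired minus saline-sired), where 53% of all genes were negative and 47% positive, with a median of -0.11 against -0.01 over all genes tested. The members had been picked with results of these data known, and these counts carry no test of the list.

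**Figure D2:**
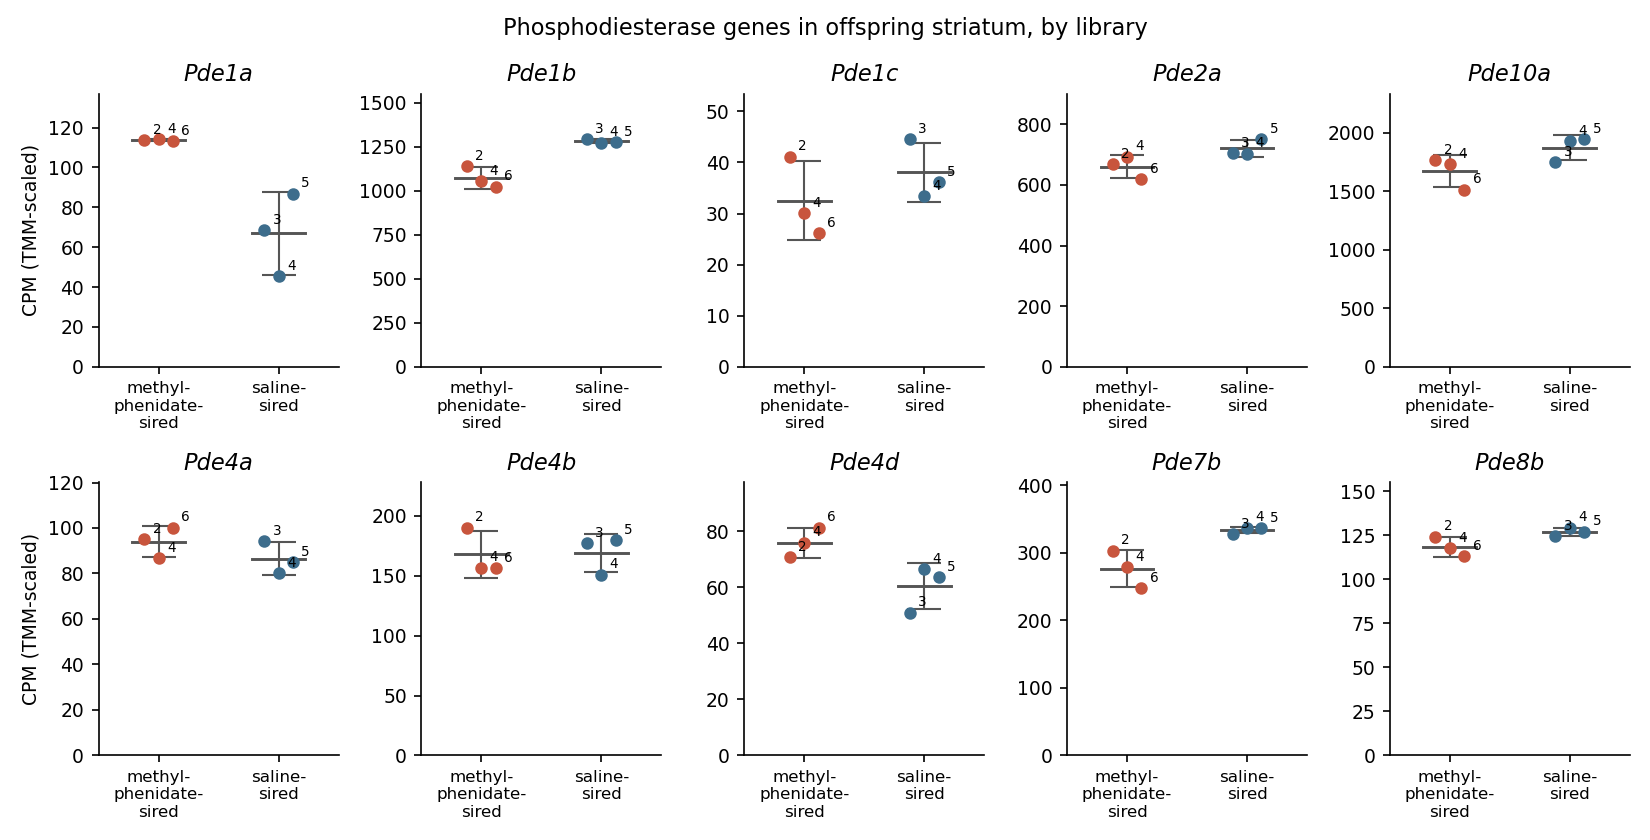
TMM-scaled CPM of the 10 phosphodiesterase genes in each library, numbered as in the text, with the group mean and SD as grey lines and methylphenidate-sired left of saline-sired. Pde1a, Pde4d, Pde1b, Pde7b, Pde2a and Pde8b show no overlap between the groups, and each vertical axis starts at 0.

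Pde1b encodes the calcium- and calmodulin-dependent enzyme of medium spiny neurons. It was at 1141, 1054 and 1023 CPM in methylphenidate-sired libraries 2, 4 and 6 (37480, 33676 and 34591 counts), against 1293, 1272 and 1276 CPM in libraries 3, 4 and 5 of the saline-sired group (51377, 40523 and 39793 counts). All methylphenidate-sired libraries lay below all saline-sired ones, and the saline-sired libraries hardly differed among themselves. The group mean of Pde1b was 16.2% lower, with a log2 fold change of -0.26 (SE 0.06, 95% interval -0.40 to -0.11), which did not pass (edgeR adjusted p = 0.412). DESeq2 called it (DESeq2 adjusted p = 0.0181). Over the other alternatives, apart from the fit without saline-sired libraries 3 and 4, the adjusted p of Pde1b was between 0.209 and 0.818.

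Pde7b encodes a cAMP-specific enzyme. It was at 303, 279 and 248 CPM in methylphenidate-sired libraries 2, 4 and 6, against 328, 338 and 336 CPM in libraries 3, 4 and 5 of the saline-sired group. The groups did not overlap, and library 6 was the lowest. Its log2 fold change was -0.27 (SE 0.08, 95% interval -0.45 to -0.09, edgeR adjusted p = 0.452). Among the 45 pairs that the 10 genes form, Pde1b and Pde7b had the most similar profiles, with a root-mean-square difference of 0.05 between their log2 CPM values centred over the 6 libraries.

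Pde10a encodes the dual-substrate enzyme that is most closely tied to medium spiny neurons. It was at 1769.7, 1735 and 1515 CPM in methylphenidate-sired libraries 2, 4 and 6, against 1747, 1927.5 and 1947 CPM in libraries 3, 4 and 5 of the saline-sired group. The groups overlapped, since saline-sired library 3 lay below methylphenidate-sired library 2. The log2 fold change of Pde10a was -0.16 (SE 0.08, 95% interval -0.34 to 0.02, edgeR adjusted p = 0.588), and -0.10 without methylphenidate-sired library 6. Counts of Pde10a relative to those of Pde1b were 1.55, 1.65 and 1.48 in methylphenidate-sired libraries 2, 4 and 6, against 1.35, 1.51 and 1.53 in saline-sired libraries 3, 4 and 5, so that the ratio overlapped between the groups.

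Pde2a, the cGMP-stimulated enzyme, was at 668, 693 and 619.6 CPM in methylphenidate-sired libraries 2, 4 and 6, against 706, 704 and 751 CPM in libraries 3, 4 and 5 of the saline-sired group. Pde8b, a cAMP-specific enzyme of high affinity, was at 124, 118 and 113 CPM in the methylphenidate-sired libraries, against 125, 129 and 127 CPM in the saline-sired ones. In both genes the groups did not overlap, but the gap was small: methylphenidate-sired library 2 of Pde8b lay within 1 CPM of saline-sired library 3. Their log2 fold changes were -0.13 (SE 0.07, 95% interval -0.28 to 0.03, edgeR adjusted p = 0.613) for Pde2a and -0.10 (SE 0.06, 95% interval -0.23 to 0.03, edgeR adjusted p = 0.630) for Pde8b. That of Pde2a was -0.08 without methylphenidate-sired library 6, and likewise without saline-sired library 5.

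Pde1a, a paralog of Pde1b also expressed in cortex and hippocampus, had higher values in the methylphenidate-sired group. It was at 113.8, 114 and 113 CPM in methylphenidate-sired libraries 2, 4 and 6 (3739, 3649 and 3831 counts), against 68.7, 45.5 and 86.9 CPM in libraries 3, 4 and 5 of the saline-sired group (2730, 1448 and 2710 counts). The methylphenidate-sired libraries were nearly equal and all above the saline-sired ones, among which library 4 was lowest and library 5 highest. The ratio of group means was 1.70 and the log2 fold change 0.76 (SE 0.19, 95% interval 0.32 to 1.204, edgeR adjusted p = 0.420). DESeq2 called Pde1a (DESeq2 adjusted p = 0.00378). Over the other alternatives, apart from the fit without saline-sired libraries 3 and 4, its adjusted p was between 0.0892 and 0.818. Without saline-sired libraries 3 and 4, which had the highest summed choroid plexus markers, the log2 fold change of Pde1a was 0.39, with the lone saline-sired library assumed to vary like the others. The same libraries also had the lowest Pde1a and the lowest summed cortical excitatory neuron markers. Leaving them out therefore had to shrink the difference in Pde1a, whatever their choroid plexus content. Counts of Pde1a relative to those of Pde1b were 0.0998, 0.108 and 0.111 in methylphenidate-sired libraries 2, 4 and 6, against 0.0531, 0.0357 and 0.0681 in saline-sired libraries 3, 4 and 5, with no overlap. Since Pde1a was higher and Pde1b lower without overlap, this ratio could not overlap and adds no further separation.

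Pde1c, the third calmodulin-dependent gene, was at 41.1, 30.1 and 26.2 CPM in methylphenidate-sired libraries 2, 4 and 6, against 44.6, 33.4 and 36.1 CPM in libraries 3, 4 and 5 of the saline-sired group. The groups overlapped, and the highest library of each group stood well above the rest of its group. Its log2 fold change was -0.23 (SE 0.17, 95% interval -0.62 to 0.17, edgeR adjusted p = 0.728), and it took values of -0.42 when methylphenidate-sired library 2 was left out, -0.09 when library 6 of that group was, and -0.10 when saline-sired library 3 was.

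The PDE4 genes encode cAMP-specific enzymes that are anchored near receptors and are the targets of rolipram. Pde4d was at 70.7, 75.9 and 81.3 CPM in methylphenidate-sired libraries 2, 4 and 6, against 51.0, 66.5 and 63.6 CPM in libraries 3, 4 and 5 of the saline-sired group. All methylphenidate-sired libraries lay above all saline-sired ones, of which library 3 was lowest. The log2 fold change of Pde4d was 0.33 (SE 0.11, 95% interval 0.09 to 0.58, edgeR adjusted p = 0.470), and 0.22 without saline-sired library 3. Pde4a was at 94.98, 86.7 and 100.2 CPM in the methylphenidate-sired libraries, against 94.3, 80.1 and 85.02 CPM in the saline-sired ones, with overlap and a difference of 0.12 on the log2 scale (SE 0.08, 95% interval -0.07 to 0.31, edgeR adjusted p = 0.700). Leaving out 1 library moved the value of Pde4a to 0.07 (methylphenidate-sired library 6 or saline-sired library 4), to 0.19 (methylphenidate-sired library 4) or to 0.18 (saline-sired library 3). Pde4b was at 190.3, 157 and 156 CPM in the methylphenidate-sired libraries, against 177, 151 and 179.7 CPM in the saline-sired ones. Its groups overlapped fully, with a log2 fold change of -0.01 (SE 0.10, 95% interval -0.24 to 0.21, edgeR adjusted p = 0.983), and its sign turned in 4 of the 6 fits that left out a library.

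**Figure D3:**
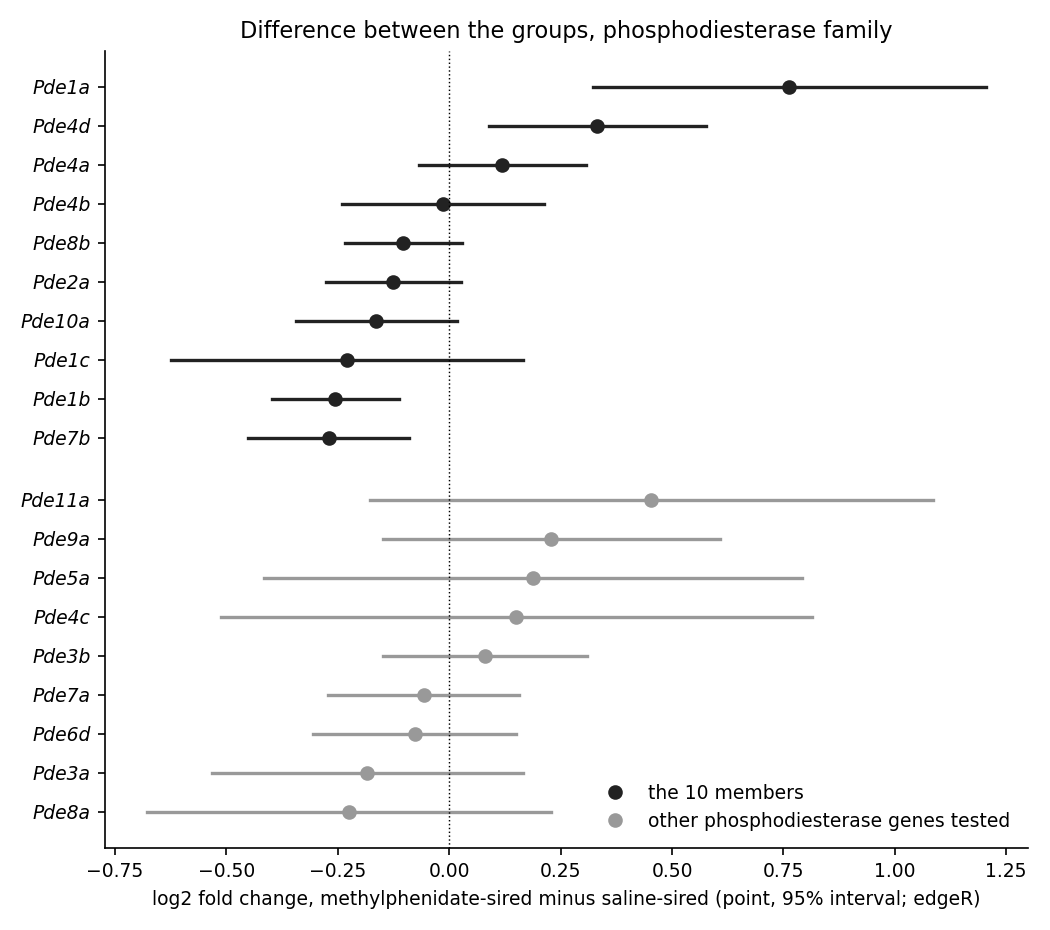
Log2 fold change of each phosphodiesterase gene tested, methylphenidate-sired minus saline-sired, with its 95% interval from the edgeR fit, the 10 members above and 9 further genes of the family below. The intervals of Pde1a, Pde4d, Pde1b and Pde7b lie to 1 side of 0, though none of the genes passed after adjustment over all genes.

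Markers of 2 neuron classes also stood apart between the groups. The summed level of 14 striatal projection neuron markers was 8796 to 9867 CPM in the methylphenidate-sired and 10519 to 11179 CPM in the saline-sired group, with all 14 log2 fold changes negative (median -0.21). None passed the edgeR test, 10 were lower at an unadjusted p under 0.05 (3.95% of all genes), 11 were lower without overlap (7.01% of all genes), and 4 passed DESeq2 (1.25% of all genes in either direction). In bulk tissue, fewer cells of a type and less RNA per cell cannot be told apart. Relative to this sum, Pde1b stood at 11.6%, 10.8% and 11.6% in methylphenidate-sired libraries 2, 4 and 6, against 12.3%, 11.5% and 11.4% in saline-sired libraries 3, 4 and 5, and the groups overlapped. Pde7b (2.82% to 3.07% and 3.01% to 3.12%) and Pde10a (17.2% to 17.9% and 16.6% to 17.4%, methylphenidate-sired against saline-sired) overlapped on that scale as well. Pde2a and Pde8b did not overlap, with higher values in the methylphenidate-sired group, at 6.77% to 7.11% against 6.34% to 6.72% for Pde2a and 1.21% to 1.28% against 1.14% to 1.19% for Pde8b. The gaps were small, and in CPM both genes were lower in that group, as was the sum. The share of all genes without overlap on this scale was not computed.

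The summed level of 14 cortical excitatory neuron markers was 3518, 3537 and 3583 CPM in methylphenidate-sired libraries 2, 4 and 6, against 2638, 2130 and 3191 CPM in libraries 3, 4 and 5 of the saline-sired group, with all 14 log2 fold changes positive (median 0.86) and none of the markers at 0. None passed the edgeR test, 11 were higher at an unadjusted p under 0.05 (5.07% of all genes), 10 were higher without overlap (7.84% of all genes), and 3 passed DESeq2 (1.25% of all genes in either direction). Some of these markers, such as Camk2a and Mef2c, are also expressed by striatal neurons. The saline-sired libraries took the same order for this sum and for Pde1a. Relative to the sum, Pde1a stood at 3.24%, 3.23% and 3.16% in methylphenidate-sired libraries 2, 4 and 6, against 2.60%, 2.13% and 2.72% in saline-sired libraries 3, 4 and 5, without overlap. The most abundant markers weigh most in the sum, and the median log2 fold change of the 14 markers, 0.86, was above the 0.76 of Pde1a. The separation was computed for this sum only, and Pde1a was not set against any other summary of the list. Pde4d overlapped on that scale (2.01% to 2.27% against 1.93% to 3.12%), as did Pde4a (2.45% to 2.80% against 2.66% to 3.76%). The part of either marker class in the differences was not tested. The summed choroid plexus markers, at 39.9 to 91.3 CPM in the methylphenidate-sired and 33.7 to 2143 CPM in the saline-sired group, were highest in saline-sired library 3, where Pde4d was lowest and Pde1c highest. All 11 choroid plexus markers tested had negative log2 fold changes (median -2.84, 10 at an unadjusted p under 0.05), as did all 8 ependymal markers (median -0.94, 4 at an unadjusted p under 0.05) and all 8 oligodendrocyte markers (median -0.21, 0 at an unadjusted p under 0.05), and none of these passed the edgeR test. Of the 9 markers each of astrocytes, microglia and vascular cells, 3, 5 and 8 were negative and 0 had an unadjusted p under 0.05. The summed levels of these 6 lists overlapped between the groups, and their part in the differences was not tested.

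**Figure D4:**
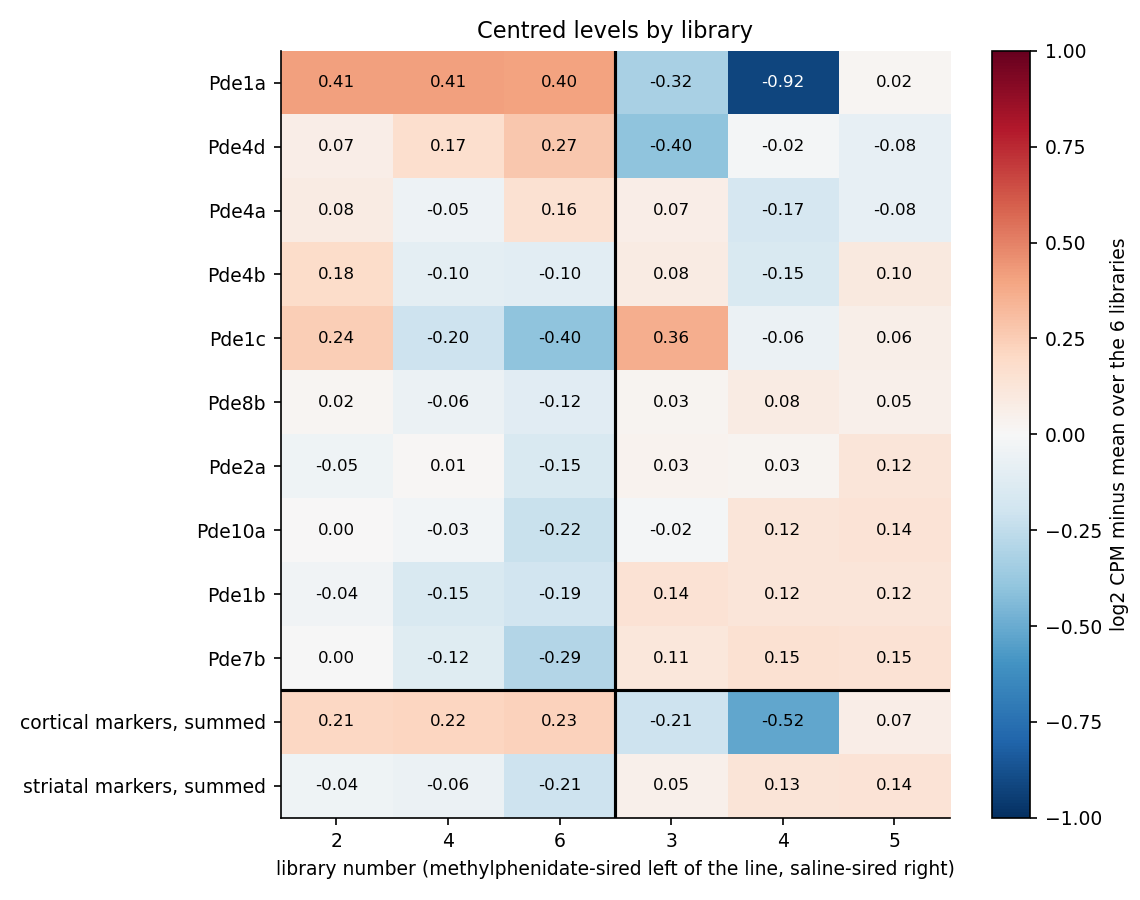
Log2 CPM of the 10 phosphodiesterase genes, and log2 of the summed CPM of the cortical and striatal marker lists, each minus its mean over the 6 libraries. Pde1a and the cortical markers share their low points in saline-sired libraries 4 and 3, and Pde10a and the striatal markers share theirs in methylphenidate-sired library 6.

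Of the remaining 14 genes of the family, 9 passed the filter on low counts, with mean levels over the 6 libraries between 0.181 (Pde4c) and 14.6 (Pde6d) CPM per kilobase. None of the 9 passed the test (smallest edgeR adjusted p = 0.664), none separated the groups, and their median log2 fold change was 0.08, with 5 positive and 4 negative. Pde6d, which encodes a prenyl-binding chaperone named for its association with the rod enzyme and is not itself a phosphodiesterase, was at 30.98 ± 3.41 CPM in the methylphenidate-sired and 32.7 ± 2.22 CPM in the saline-sired group. By lowest unadjusted p, Pde11a had a log2 fold change of 0.45 (SE 0.28), Pde9a, specific for cGMP, 0.23 (SE 0.16) and Pde3a, inhibited by cGMP, -0.18 (SE 0.15).

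Genes that make, read and organise cyclic nucleotides were counted in lists of cyclases, effectors, and anchors or regulators. Of the 62 listed genes 54 were tested, 0 passed (smallest edgeR adjusted p = 0.400), and 27 were positive and 27 negative, with a median of -0.0018. At an unadjusted p under 0.05 there were 5 higher and 1 lower of the 54, against 9.02% of all genes, and DESeq2 called 1 of the 49 to which it gave an adjusted p, against 1.25% of all genes. Among the cyclases, Adcy5, the main adenylyl cyclase of medium spiny neurons, was at 1385 ± 126 CPM in the methylphenidate-sired and 1604 ± 88.4 CPM in the saline-sired group, a difference of -0.21 on the log2 scale (SE 0.08, edgeR adjusted p = 0.497). The calmodulin-stimulated Adcy1 was at 628 ± 73.9 and 519 ± 13.8 CPM in these groups (0.27, SE 0.09, edgeR adjusted p = 0.463), and Adcy2 at 113 ± 18.7 and 92.1 ± 0.838 CPM (0.29, SE 0.11, edgeR adjusted p = 0.491).

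Among the effectors, Prkar1b, a regulatory subunit of protein kinase A, was at 449 ± 15.0 CPM in the methylphenidate-sired and 349 ± 56.4 CPM in the saline-sired group, a difference of 0.36 on the log2 scale (SE 0.11, edgeR adjusted p = 0.457), and Prkar2a, another, at 55.0 ± 4.29 and 49.1 ± 2.07 CPM in these groups (0.16, SE 0.08). Of the anchors and regulators, the kinase anchor gene Akap7 had 0.37 (SE 0.09, edgeR adjusted p = 0.400), the anchor gene Akap9 -0.15 (SE 0.08) and the kinase inhibitor gene Pkig -0.16 (SE 0.08). The groups did not overlap for Prkar1b, Adcy1, Adcy5, Akap7 and Pkig. Of the 54 pathway genes tested, 5 were higher and 2 lower without overlap, against 7.84% and 7.01% of all genes tested.

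For Pde1b, Pde10a and Pde1a, the genes of most similar profile were searched among the 10697 genes whose average log2 CPM reached 3, as a description over the 6 libraries. Those closest to Pde1b were Rnf150, Chst15 and Inf2, with root-mean-square differences of 0.02, 0.03 and 0.03 on the centred log2 scale. Pde10a was closest to Dlx6 (0.02), a homeobox gene of GABAergic forebrain neurons, Strn (0.02), which encodes striatin, and Rragd (0.03). Pde1a was closest to Syt17 (0.06), Ipcef1 (0.08) and Doc2a (0.08), a calcium sensor gene of synaptic vesicle release. Syt17 was lowest in saline-sired library 4, at -0.96 from its mean, as was Pde1a at -0.92.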

How the data were processed

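RNA from offspring striatum was sequenced in 6 libraries. Per the submitters' processing notes, the tools were bcl2fastq 2.20.0, Trimmomatic, HISAT2 2.1.0 and StringTie 2.1.3b with build mm10. No source used here gives their settings, the strandedness or the handling of reads with several matches. The authors' deposited table holds whole-number read counts for 45777 genes, not normalized, and these were used as deposited. A further 12 columns of per-sample values (FPKM and TPM) were not used. Each count column was tied to its group by name.

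The counts were tested with edgeR 4.0.16 (R 4.3.3): filterByExpr, TMM scaling, and the quasi-likelihood F test with no covariate, since no column can be tied to a sex. P-values were adjusted by Benjamini-Hochberg over the 17874 genes kept, with a threshold of 0.05. Alternatives were DESeq2 1.42.0, limma-voom (limma 3.58.1), other scalings, other filters, and leaving out libraries. Each SE was derived from the log2 fold change and its F value. Lengths are merged exons of GENCODE vM21, on the assembly of mm10, and coordinates come from the RefSeq gene table of GRCm38.p6, where 45679 gene IDs matched. Libraries of a group differed by more than sampling noise (chi-square per gene 13.1 to 27.2). Named genes are the 10 members, the 3 pathway or family genes of lowest p per list whose average log2 CPM reached 1, and the 3 genes most alike to each of Pde1b, Pde10a and Pde1a. A gene that this rule names is not reported here. The members and lists were chosen with earlier results of these data known, and values relative to marker sums were added after the data were seen.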

Additional observations from a re-analysis of the deposited data

How the results depend on the processing

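Over 14 alternatives, 9 of the 10 phosphodiesterase genes kept the sign of their log2 fold change, and Pde4b did in 10. Pde4b had 0.046 and 0.036 without methylphenidate-sired library 4 and 6, and 0.018 and 0.044 without saline-sired library 3 and 5, over a leave-one-out range of -0.097 to 0.046. With DESeq2, Pde1a (0.77) and Pde1b (-0.25) passed, giving 1 member higher and 1 lower, with 1 pathway gene higher, and 140 genes higher and 40 lower in all, against 0 and 4. The other alternatives called no member. Genes lower in all numbered 1 with at least 10 counts in every library and 0 without saline-sired libraries 3 and 4; leaving out 1 library gave 1 to 4 lower and 0 to 1 higher. No paired analysis was possible because the columns of the groups share only 1 animal number. That number is not known to mark a pair, since numbers cannot be tied to labelled animals and the groups had differently treated sires. With the longest RefSeq transcript as length, levels were 361 (Pde1b), 228 (Pde10a), 164 (Pde2a), 73.8 (Pde7b), 39.2 (Pde4b), 29.0 (Pde8b), 26.7 (Pde4d), 21.2 (Pde1a), 19.4 (Pde4a) and 4.02 (Pde1c) CPM per kilobase, since it is shorter than the merged exons.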

Other observations

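The photoreceptor phosphodiesterase subunit genes were below the filter on low counts and were not tested. Pde6c, a cone subunit gene, had 2, 9 and 7 counts in methylphenidate-sired libraries 2, 4 and 6, against 0 in each saline-sired library. Pde6g, the inhibitory rod subunit gene, had 0 counts in each methylphenidate-sired library, against 12, 7 and 0 in saline-sired libraries 3, 4 and 5. Pde6b, a catalytic rod subunit gene, had 0 counts in each methylphenidate-sired library, against 6, 3 and 0 in the saline-sired ones. Pde6a, the other catalytic rod subunit gene, had 6, 3 and 0 counts in the methylphenidate-sired libraries, against 0 in each saline-sired one. Pde6h had 0 counts in all 6 libraries. At totals of 31360042 counts or more, these values are at or near the lower limit of what the libraries can show.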
